A study of Mus musculus with 80 samples.

Results

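The 10 genes described here are the immediate early genes Fos, Fosb, Jun, Junb, Egr1, Egr2, Arc, Npas4, Nr4a1 and Dusp1, chosen by symbol from the 25160 genes listed for single striatal neurons, and each of the 10 was found in the table. The cells came from adult mice of the strain given as Drd1a-TdTomatohet;Drd2-EGFPhet, in which a TdTomato and an EGFP transgene, both carried on bacterial artificial chromosomes, mark cells that use the D1 and the D2 dopamine receptor promoter. Every cell of both groups therefore carried both transgenes, and the groups differ in which reporter the cell lit up with when it was sorted by FACS from the dorsomedial striatum. The table holds 80 cells, 40 of them labelled Drd1a-TdTomato and 40 Drd2-EGFP, spread over 3 plates. By the study's methods, the mice were anesthetized, had a nuclear dye and ink injected into the striatum, and their brain slices were digested with papain before the sort. No mouse without this handling is part of the table, so levels here have no untreated baseline.

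Immediate early genes are switched on within minutes by synaptic activity, growth factors or stress, through transcription factors such as CREB and SRF that are already present in the cell and need no new protein. Calcium entry and cAMP, the messenger that D1 receptors raise and D2 receptors lower in medium spiny neurons (MSN), are the best known triggers in the striatum. Many of these transcripts are short-lived, so that a cell holds them for a limited time after a stimulus, and several code for transcription factors that act on later genes. In the striatum they are widely used as marks of recently active neurons and of the response to dopaminergic drugs.

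A total of 2 Drd2-EGFP cells held Chat, the acetylcholine-synthesizing enzyme of cholinergic interneurons, above 100 TPM (a level that allows for transcript length and for the total of the cell) and were left out, which left 40 D1 MSN and 38 D2 MSN, 78 cells in all. Receptor genes followed the labels, since Drd1 was above 1 TPM in 38 of 40 D1 MSN and 3 of 38 D2 MSN, and Drd2 in 2 of 40 D1 MSN and 26 of 38 D2 MSN. Ppp1r1b, the MSN phosphoprotein DARPP-32, exceeded 1 TPM in all 78 MSN. In the lowest D1 MSN it stood at 1.42 TPM, against a median of 1619 TPM over D1 MSN. Cell B02 of FACS086_4, with 648 genes above 1 TPM, had summed MSN markers at 13.6 TPM and Drd1 at 0. The median of that sum over D1 MSN was 4268 TPM, and the cell was kept among them. Between 648 and 8657 genes per D1 MSN (median 5722) and between 1215 and 7942 per D2 MSN (median 4928) were above 1 TPM. TPM keep no record of depth, so a gene without signal is given as listed at 0, and nothing can be said on how many reads a value rests on. The Drd1a-TdTomato cell in well D04 of plate FACS051_5 stood apart, with Drd1 at 2.03 TPM and Fos at 262 TPM. Its summed MSN markers stood at 192 TPM and its summed astrocyte markers at 3678 TPM, and it was kept as well. The median of the astrocyte sum was 1.07 TPM over all 40 D1 MSN and 0.476 TPM over the 38 D2 MSN. The highest in a D2 MSN was 225 TPM. The markers of cholinergic interneurons, Chat, Slc5a7, Slc18a3, Lhx8 and Ecel1 together reached at most 14.7 TPM in any MSN, and summed oligodendrocyte markers at most 348 TPM. In 3 MSN under 2000 genes were found. The study also reports that not every sequenced cell gave usable data. It does not name those cells in the sources used here, so the 78 MSN may include some of them. By the study's methods, its MSN came from 3 animals in all. The labels tie no cell to an animal, so each reporter group was taken as 1 sample. No test and no p-value is therefore given, and differences between groups are descriptions of these cells.

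Because CREB binds the cAMP response element, the stretches just upstream of the start sites are shown for 6 of the genes, to set the letters of that element beside the levels in the same cells. They come from RefSeq with build GRCm38.p6, run 5′ to 3′ on the gene's strand and end at the base before the start site, or before the nearest annotated exon where that comes earlier. Capitals mark TGACG, the core of the element, or CGTCA, the same core on the other strand. The full element TGACGTCA holds both, overlapping by 2 bases. They were taken from chr12:85473690-85473889 (+) for Fos, chr4:95052223-95052422 (-) for Jun, chr8:84978749-84978948 (-) for Junb, chr10:67537669-67537868 (+) for 1 of several start sites of Egr2, chr15:101266646-101266845 (+) for Nr4a1 and chr17:26508520-26508672 (-) for Dusp1.
Fos: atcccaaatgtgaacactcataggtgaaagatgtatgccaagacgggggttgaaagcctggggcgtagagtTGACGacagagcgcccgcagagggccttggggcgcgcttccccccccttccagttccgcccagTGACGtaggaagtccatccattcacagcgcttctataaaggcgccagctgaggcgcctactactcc
Jun: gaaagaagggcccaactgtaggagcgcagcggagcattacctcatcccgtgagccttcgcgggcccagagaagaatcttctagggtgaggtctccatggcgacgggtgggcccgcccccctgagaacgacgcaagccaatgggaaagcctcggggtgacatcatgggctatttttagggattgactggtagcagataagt
Junb: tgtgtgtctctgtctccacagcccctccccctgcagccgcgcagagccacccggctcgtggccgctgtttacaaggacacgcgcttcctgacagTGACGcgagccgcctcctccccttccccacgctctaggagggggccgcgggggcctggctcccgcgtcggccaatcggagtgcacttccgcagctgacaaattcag
Egr2: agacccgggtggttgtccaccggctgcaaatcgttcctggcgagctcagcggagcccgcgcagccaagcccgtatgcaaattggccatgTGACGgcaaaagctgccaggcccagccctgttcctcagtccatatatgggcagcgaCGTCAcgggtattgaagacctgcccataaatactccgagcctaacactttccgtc
Nr4a1: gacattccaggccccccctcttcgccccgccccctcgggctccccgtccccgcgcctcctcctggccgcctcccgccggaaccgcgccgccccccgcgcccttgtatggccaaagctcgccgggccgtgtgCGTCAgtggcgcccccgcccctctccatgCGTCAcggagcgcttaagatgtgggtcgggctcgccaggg
Dusp1: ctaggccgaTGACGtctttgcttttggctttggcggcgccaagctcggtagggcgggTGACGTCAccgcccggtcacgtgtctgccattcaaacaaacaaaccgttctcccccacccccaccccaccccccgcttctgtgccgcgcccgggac
The stretches of Egr2, Nr4a1 and Dusp1 lie inside the span annotated for these genes, upstream of an internal start. Of the 10 genes, 8 had a window of 200 bases in the RefSeq table, and 7 of those 8 held the core in at least 1 window, as did 17.5% of all 27025 genes with a window. Counted by window, 15.7% of 32851 held the core on either strand and 1.47% the full element. The window of Fos held the core at -129 and -66, counted from the start site, that of Nr4a1 at -69 and -40, and that of Junb at -106. The window of Dusp1 was the only member's window with the full element, at -143, and had a further core at -191. The windows of Egr2 near the start shown held 2 cores, the window of Npas4 held 2, at -179 and -169, and that of Fosb 1, at -60. Jun had none in its window. These are matches of letters, and no binding was measured here.

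Early gene signal in these MSN was strong in some cells and absent from the list of others, with little between. The 10 genes in 78 cells give 780 values, of which 344 were 0, 85 lay above 0 and up to 1 TPM, 57 between 1 and 10 TPM and 294 above 10 TPM. As many as 159 values lay above 100 TPM. Fos and Dusp1 show the shape plainly. Fos had 45 cells at 0, 7 up to 1 TPM, 2 between 1 and 10 TPM and 24 above 10 TPM. Dusp1 had 1 cell between 1 and 10 TPM and 28 above it. Jun and Npas4 had more of their cells in the low range, 9 and 11 cells between 1 and 10 TPM against 6 and 20 above it. The heat map of all cells shows these steps for each gene. Such a shape was also seen outside the 10 genes. The MAP kinase gene Mapk3 had 53 of 78 MSN at 0, 4 up to 1 TPM and 15 above 10 TPM. The adenylyl cyclase gene Adcy5 differed, with 2 MSN at 0 and 71 above 10 TPM. The same split was not counted over all genes.

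**Figure D1:**
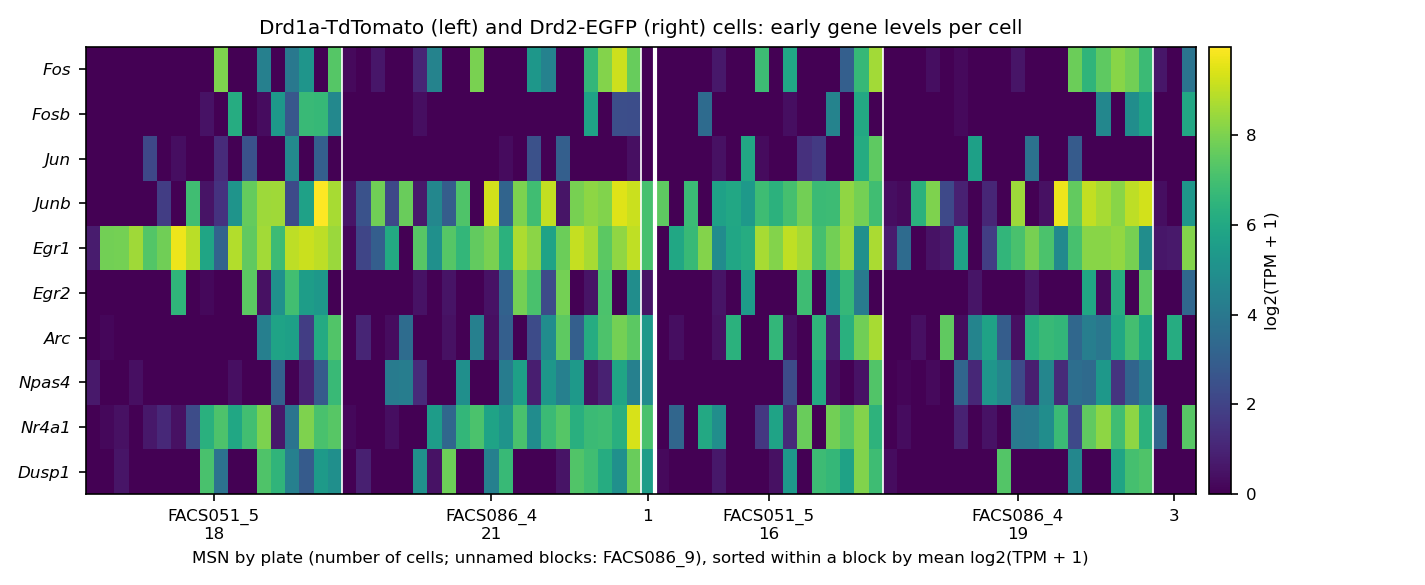
Levels of the 10 immediate early genes (rows) in 78 MSN (columns), as log2(TPM + 1) in colour, with Drd1a-TdTomato cells left and Drd2-EGFP cells right of the thick line and plates set apart by thin lines. Within a block cells are sorted by the mean of the 10 rows, which by itself places high values towards the right edge of each block. The order of cells is thus no measure of whether the genes are high in the same cells.

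Among the 4 of the 10 genes that code for subunits of AP-1, the transcription factor made of a Fos and a Jun family protein, Junb was the most widely found and had the highest mean. Junb (chr8:84974484-84978718), often counted as the restraining Jun protein, was above 1 TPM in 56 of 78 MSN (71.8%, exact 95% interval 60.5% to 81.4%). In D1 MSN it ran from 0 over a median of 42.9 TPM to 1001 TPM, and in D2 MSN from 0 over 96.0 TPM to 832 TPM. The ranges overlapped almost whole, and 29 of 40 D1 MSN and 27 of 38 D2 MSN were above 1 TPM. The large plates had opposite orders. On FACS051_5 Junb was found in 11 of 18 D1 and 14 of 16 D2 MSN, and on FACS086_4 in 17 of 21 and 12 of 19. Prdx2 overlaps Junb on the opposite strand, and since the strand of the libraries is not stated, reads of both genes cannot be told apart where they overlap.

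Fos (chr12:85473890-85477273), the founding member of the family, was above 1 TPM in 14 of 40 D1 MSN and 12 of 38 D2 MSN. Its median was 0 in both groups, and the highest cells reached 583 TPM among D1 and 380 TPM among D2 cells. Where it was found it was high, with a median of 105 TPM over the 26 cells above 1 TPM. Fosb (chr7:19302696-19310051), whose truncated product ΔFosB builds up in MSN under repeated stimulation, was found in 9 of 40 D1 MSN and 7 of 38 D2 MSN, with highest values of 108 TPM and 63.8 TPM. The table gives 1 value per gene, so the full-length and truncated forms are not separated.

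Jun (chr4:95049034-95052222), the general partner of the Fos proteins, was the least found of the 10, in 15 of 78 MSN (19.2%, 11.2% to 29.7%). Of the 40 D1 MSN 7 were above 1 TPM, the highest of them at 25.0 TPM, and of the 38 D2 MSN 8 were, the highest at 180 TPM. Its shares were thus close in the 2 groups (7.34% to 32.8% in D1 MSN and 9.55% to 37.3% in D2 MSN as exact intervals), while the levels in the cells that held it were lower in D1 MSN, with a median of 4.70 TPM against 31.1 TPM. The antisense transcript Junos overlaps Jun, and its reads cannot be told apart from those of Jun either.

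Pooled over plates, both zinc finger factors were found in more D1 than D2 MSN, within overlapping intervals. On FACS051_5 the shares were close, with Egr1 in 17 of 18 D1 and 15 of 16 D2 MSN. Egr2 was in 6 of 18 and 5 of 16 cells there. On FACS086_4 Egr1 was in 19 of 21 D1 and 14 of 19 D2 MSN, and Egr2 in 7 of 21 and 3 of 19. Genes found per cell had medians of 5730 and 4617 on that plate, and their part was not tested. Egr1, an early transcription factor used as a mark of plasticity, was the most widely found of the 10 genes, above 1 TPM in 67 of 78 MSN (85.9%, 76.2% to 92.7%) and above 100 TPM in 47. In D1 MSN it ran from 0 over a median of 199 TPM to 829 TPM, and 37 of 40 cells held it (79.6% to 98.4%). In D2 MSN it ran from 0 over 98.8 TPM to 515 TPM, and 30 of 38 cells were above 1 TPM (62.7% to 90.4%). The groups overlap over the whole range of the D2 cells. Egr2 (chr10:67535475-67542188), its close relative, was found in 13 of 40 D1 MSN and 9 of 38 D2 MSN, with highest values of 237 TPM and 175 TPM. Each of the 22 cells with Egr2 above 1 TPM also had Egr1 above 1 TPM, where 67 of 78 MSN had it in all.

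Nr4a1 (chr15:101254269-101274795), an orphan nuclear receptor that dopamine drugs act on strongly in the striatum, was above 1 TPM in 27 of 40 D1 MSN and 23 of 38 D2 MSN. It ran from 0 over a median of 49.2 TPM to 650 TPM in D1 MSN, and from 0 over 8.66 TPM to 310 TPM in D2 MSN. The intervals of the shares, 50.9% to 81.4% and 43.4% to 76.0%, overlap widely. Npas4 (chr19:4984355-4990316), a factor that neurons switch on with calcium entry and few other cells use, was above 1 TPM in 15 of 40 D1 MSN and 16 of 38 D2 MSN. It was low where it was found, with a median of 17.8 TPM over the 31 cells above 1 TPM and 2 cells above 100 TPM.

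Arc (chr15:74669083-74672570), which codes for a synaptic protein that forms RNA-carrying capsids and removes AMPA receptors, was the only member besides Npas4 and Jun found in a larger share of D2 than of D1 MSN. It exceeded 1 TPM in 19 of the 40 D1 cells (31.5% to 63.9%) and in 20 of the 38 D2 cells (35.8% to 69.0%), so this order lies within counting error. Its median was 0.363 TPM over D1 and 7.85 TPM over D2 cells, and its highest cells reached 236 TPM and 401 TPM. Dusp1 (chr17:26505590-26562128), a phosphatase that turns off MAP kinases and so limits the signal that induces it, was found in 18 of 40 D1 MSN and 11 of 38 D2 MSN, with highest values of 219 TPM and 272 TPM. Ergic1 overlaps Dusp1 on the opposite strand in the annotation used here, and reads in the shared stretch cannot be assigned to either.

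Ordered by mean TPM over the 78 MSN, which is a level per transcript length, Egr1 at 198 ± 184 (SD over cells) stood next to Junb at 166 ± 220 TPM. Nr4a1 followed at 73.0 ± 107, Fos at 48.3 ± 105, Arc at 40.3 ± 70.9 and Dusp1 at 34.6 ± 61.3 TPM. Egr2 at 24.7 ± 54.4, Npas4 at 11.1 ± 24.4, Fosb at 8.63 ± 22.4 and Jun at 5.62 ± 23.3 TPM closed the order. The SD over cells exceeds the mean of every gene but Egr1, and neighbours in this order differ by less than either SD. The study reports a bias of reads towards the tail end of transcripts. It also reports that the annotation used changed the reads counted for Chrm4, so levels of different genes compare only roughly.

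The difference between D1 and D2 MSN was taken as the log2 fold of mean TPM plus 1, and a fold past 2 in either direction was counted. None of the 10 genes was past 2-fold higher in D1 MSN, where 18.4% of the 14631 genes averaging at least 1 TPM were, and 1 of 10, Jun, was past 2-fold higher in D2 MSN, against 12.9% of all genes. The median log2 fold of the 10 genes was 0.18 and that of all genes 0.08. The counts of members thus lie at or under the background in both directions. The mean of Jun was 1.35 TPM over D1 and 10.1 TPM over D2 cells, which gives -2.24. The Drd2-EGFP cell A03 of FACS051_5, named here after its values were seen, held 46.8% of all Jun signal in D2 MSN, and without it the fold was -1.47. With each cell left out in turn the fold stayed between -2.67 and -1.47. The difference of mean log2(TPM + 1), which weighs high cells less, was -0.44 for Jun.

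Egr2 and Egr1 had the next largest folds towards D1 MSN, at 0.93 and 0.72. For Egr1 this held on both large plates, at 0.59 on FACS051_5 and 0.83 on FACS086_4, and with any 1 cell left out it ranged from 0.63 to 0.82. Its means were 245 TPM over D1 and 149 TPM over D2 cells, and on the mean log2 scale its difference was 1.35, past 2-fold. Egr2 was higher in D1 MSN on both plates as well, at 0.52 and 1.16. Leaving out any 1 cell kept its fold between 0.69 and 1.34, past 2-fold for 5 of the 78 cells so left out.

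Among the remaining genes, Arc alone lay on the same side of 0 on both large plates. Fos was lower in D1 MSN on FACS051_5 (-0.58) and higher on FACS086_4 (0.28), and Fosb was higher on the first (1.55) and lower on the second (-0.71). Npas4 ran from -0.90 to 0.55 and Dusp1 from -0.66 to 0.73 between the same plates. Nr4a1 was at -0.02 and 0.49, and Junb at 0.26 and -0.08. Arc was lower in D1 MSN on both, at -1.62 and -0.06, and cell A03 held 21.4% of its D2 signal. With any 1 cell left out, cell D04 of FACS051_5 included, Fos stayed between -0.38 and 0.38. On both large plates at once, 0 of 10 genes were past 2-fold higher in D1 MSN, against 5.14% of all genes, and 1 of 10, Jun, was past 2-fold higher in D2 MSN, against 4.25%. On FACS086_4 the fold of Jun rested on cell D07, at 49.6 TPM, and was -0.37 without it instead of -1.54, while on FACS051_5 it was -1.60 without A03 instead of -2.64.

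**Figure D2:**
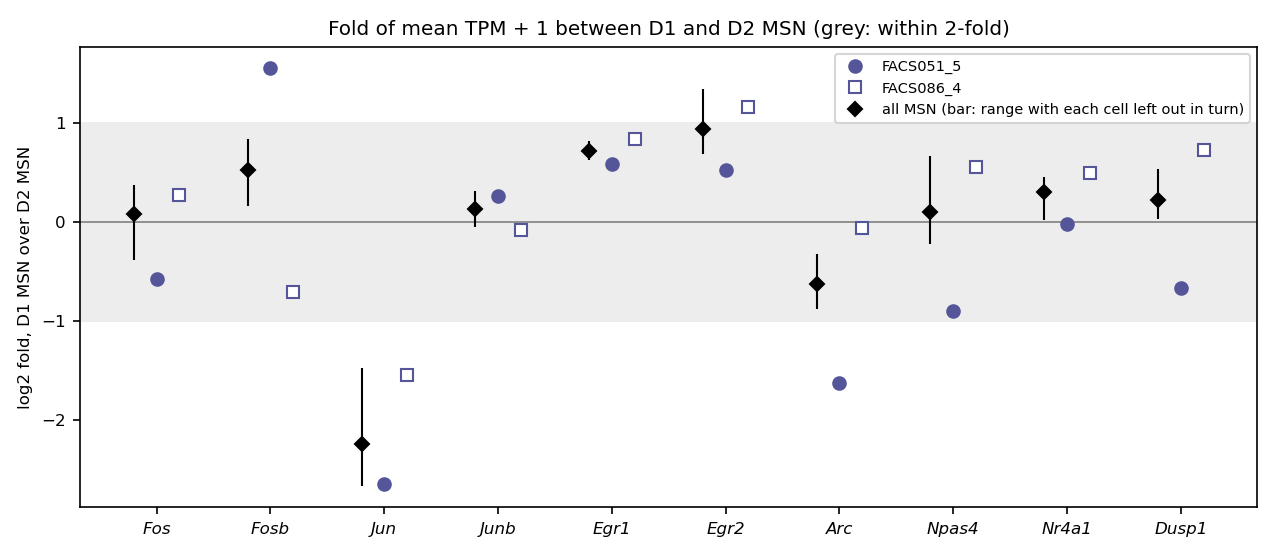
Log2 fold of mean TPM + 1, D1 over D2 MSN, for each gene (x axis) over all 78 MSN (diamonds, with the range when each cell is left out in turn) and within FACS051_5 (circles) and FACS086_4 (open squares). Jun alone lies outside the grey 2-fold band over all MSN, at -2.24, and the 2 plates lie on opposite sides of 0 for Fos, Fosb, Junb, Npas4, Nr4a1 and Dusp1.

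The genes also differed between the large plates, and the labels do not say whether a plate is an animal, a day or a sort. Npas4 differed most of the 10 in how many cells held it. How many of all genes differ as much in this share between the plates was not counted. On FACS086_4 it was above 1 TPM in 24 of 40 MSN (43.3% to 75.1%) and on FACS051_5 in 6 of 34 (6.76% to 34.5%), and both reporter groups showed the gap, with 11 of 21 against 3 of 18 D1 MSN and 13 of 19 against 3 of 16 D2 MSN. Arc had the same order, with 25 of 40 MSN on FACS086_4 (45.8% to 77.3%) and 12 of 34 on FACS051_5 (19.7% to 53.5%). Jun had the opposite order, with 5 of 40 and 10 of 34, and so had Fosb, with 6 of 40 and 9 of 34, both within overlapping intervals. Genes above 1 TPM per cell had medians of 5109 and 5923 in D1 and D2 MSN of FACS051_5 and of 5730 and 4617 on FACS086_4, so neither large plate had the higher median in both groups.

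**Figure D3:**
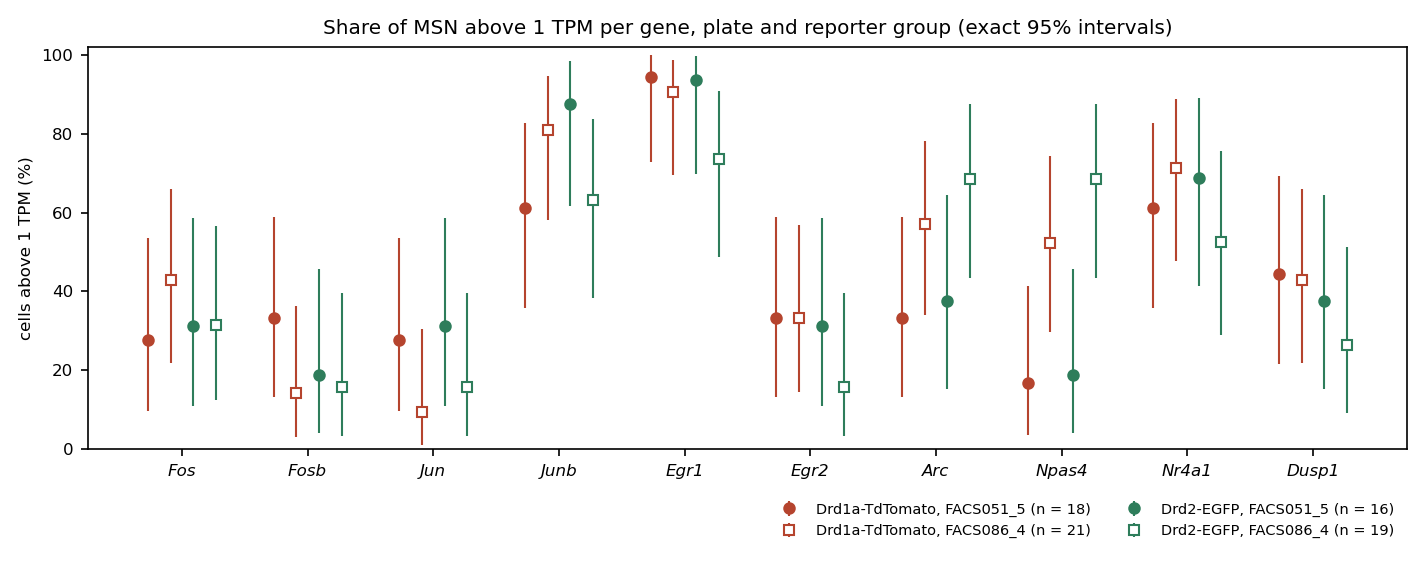
Share of MSN above 1 TPM in percent (y axis) for each gene, for D1 (red) and D2 (green) MSN on FACS051_5 (filled) and FACS086_4 (open), with exact 95% intervals for counting error. Npas4 is found in 52.4% and 68.4% of cells on FACS086_4 and in 16.7% and 18.8% on FACS051_5, the widest gap between plates among the 10 genes.

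Counted as folds between plates, 2 of 10 genes were past 2-fold higher on FACS051_5 in D1 MSN, Fosb (2.36) and Jun (1.07), where 21.3% of all genes were. Another 2, Fos (-1.35) and Arc (-1.09), were past 2-fold higher on FACS086_4, against 21.2%. In D2 MSN 1 of 10, Jun (2.17), was past 2-fold higher on FACS051_5, against 24.6%, and 0 of 10 on FACS086_4, against 17.4%. In both subtypes alike, Jun was past 2-fold higher on FACS051_5, where 6.14% of all genes were, and 0 of 10 on FACS086_4, against 4.49%. These counts are near the background. The folds of Fos, Jun and Arc in D1 MSN were under 2-fold without a single cell, at -0.71 without A04 of FACS086_4, 0.33 without B03 of FACS051_5 and -0.73 without A04 of FACS086_4. Without cell D04 of FACS051_5, set apart above, the D1 fold of Fos was -2.31.

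For 3 genes the share of cells and the mean TPM pointed to different plates in D2 MSN. Arc and Npas4 had folds of 0.47 and 0.46 towards FACS051_5 by mean TPM and differences of -1.01 and -1.33 towards FACS086_4 by mean log2(TPM + 1). Cell A03 of FACS051_5, with Arc at 401 TPM and Npas4 at 151 TPM, held 41.1% and 68.4% of the D2 signal of that plate, and without it the folds were -0.19 and -0.92. Junb went the other way, at -0.85 by mean TPM and 1.29 by mean log2. In D1 MSN, 87.1% of the Npas4 signal of FACS051_5 was in cell A02, at 109 TPM, and the fold of -0.99 was -3.02 without it.

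In a single MSN, a median of 4 of the 10 genes was above 1 TPM in D1 as in D2 cells. The number ran from 0 to 9 in both groups, and no cell held all 10. The summed TPM of the 10 genes ran from 0.967 over a median of 607 to 2384 TPM in D1 MSN, and from 1.22 over 349 to 1848 TPM in D2 MSN. A total of 21 MSN, 12 D1 and 9 D2, held 7 or more of the genes, with 8 on FACS051_5 and 13 on FACS086_4. Another 12, 5 D1 and 7 D2, held 0 or 1, and the remaining 45 held 2 to 6. Thus both subtypes and both large plates hold cells at either end.

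The 3 D1 MSN with the most genes had 9 each. Cell B04 of FACS086_4 lacked Jun (0.311 TPM) and had Junb at 582, Egr1 at 520, Nr4a1 at 650 and Dusp1 at 205 TPM. Cell B04 of FACS051_5 had Junb at 1001 TPM, the highest of any cell, and Egr1 at 503 TPM, while Fos, the gene most used as an activity mark, was at 0. Cell B03 of FACS051_5 had Egr1 at 500 TPM and Egr2 at 124 TPM, with Junb at 3.74 TPM and Npas4 at 0. Among D2 MSN, B09 of FACS086_4 had 9 genes without Jun, and C02 of FACS051_5 had 9 with Npas4 at 0.398 TPM and Dusp1 at 272 TPM. A03 of FACS051_5, with 8 genes and the highest sum of the 4 D2 MSN that held 8, was the highest D2 MSN for Fos, Jun, Arc and Npas4 and had Fosb and Egr2 at 0. High cells thus differed in which of the genes they lacked.

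Cells with many of the early genes were also cells in which more genes of any kind were found. The medians were 6279 genes above 1 TPM in the 21 cells with 7 or more, 5288 in the 45 between and 2947 in the 12 with 0 or 1. Of the 3 cells with none, B02 of FACS086_4 had 648 genes, D12 of FACS086_4 had 1802 and B07 of FACS051_5 had 4119. Within plate and group, Spearman's rho between early genes found and all genes found was 0.76 (FACS051_5 D1, n = 18), 0.28 (FACS051_5 D2, n = 16), 0.50 (FACS086_4 D1, n = 21) and 0.58 (FACS086_4 D2, n = 19). Cells of a stratum share a plate, and the part of the number of genes found in the number of early genes was not tested. Reporter fluorescence gave rho of 0.53, -0.07, 0.07 and -0.11 in the same order. Summed heat shock genes, with Hspa8 and Hsp90aa1 the highest, gave -0.19, 0.49, 0.20 and 0.23, and summed MSN markers 0.29, 0.40, 0.39 and 0.19. Among markers of other cell types, summed astrocyte markers gave 0.29, -0.19, 0.49 and 0.43, oligodendrocyte markers 0.57, 0.20, -0.37 and 0.05, and markers of cortical excitatory neurons 0.23, -0.03, 0.66 and 0.38. Markers of cholinergic interneurons gave 0.19, 0.25, 0.06 and 0.50, of other interneurons 0.19, -0.32, 0.07 and 0.13, of microglia 0.52, 0.12, 0.19 and 0.06, and of endothelial cells 0.38, 0.04, 0.16 and -0.40. Both interneuron sums had a median of 0 TPM in D1 and in D2 MSN. The sum of other interneurons, from 3 of 6 markers, reached at most 2.51 TPM in D1 and 0.984 TPM in D2 MSN. Microglia and endothelial sums rest on 2 of 6 and 2 of 5 markers. No MSN had an endothelial sum under 10.8 TPM. These rho therefore say little on RNA of such cells. The sum of the cortical markers stood at 147 TPM in cell B04 of FACS086_4, the highest of any MSN, against a median of 0.567 TPM over D1 MSN. The part of such RNA in the early gene values was not tested.

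**Figure D4:**
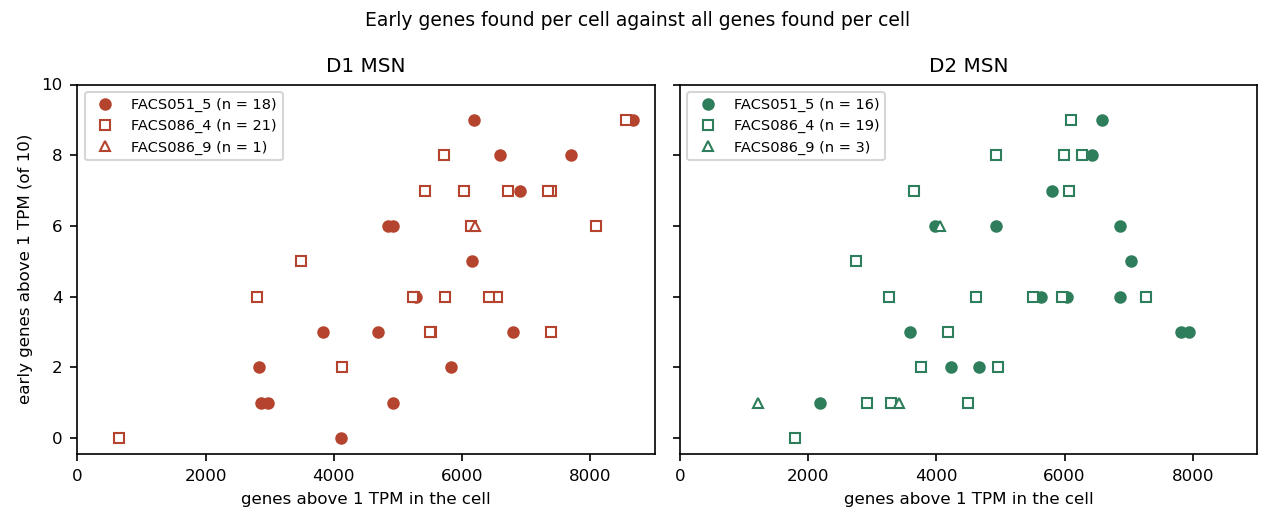
Number of the 10 early genes above 1 TPM (y axis) against the number of all genes above 1 TPM (x axis) in each D1 MSN (left) and D2 MSN (right), with plates as symbols. The cells with 9 early genes have between 6106 and 8657 genes, and cells of like gene number differ widely in early genes.

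Across cells, the 10 genes had a higher median correlation with each other than genes at large. Within each of 4 strata of plate and reporter group, Spearman's rho was taken for the 45 pairs. The median over pairs was 0.35 in D1 MSN of FACS051_5, 0.30 in D2 MSN of FACS051_5, 0.32 in D1 MSN of FACS086_4 and 0.26 in D2 MSN of FACS086_4, and 42, 41, 43 and 38 of the 45 pairs were above 0. Over all pairs of the genes above 1 TPM in at least 20% of MSN, the medians in the same order were 0.08, 0.08, 0.09 and 0.07. Those genes were not matched to the 10 by share of zeros or by level, and Jun, at 19.2%, falls under that line. After a linear fit of each gene on the number of genes found per cell, the medians of the 45 pairs were 0.20, 0.28, 0.29 and 0.23, and those of all pairs 0.01 in each stratum. With 16 to 21 cells a stratum and many zeros, a single rho is uncertain, and no p is given.

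Nr4a1 had the closest and Jun the loosest relation to the other members. The correlation of log2(TPM + 1), centred within plate and group over the 78 MSN, with the mean of the other 9 genes was r = 0.69 for Nr4a1, 0.58 for Fos, 0.56 for Arc, 0.54 for Dusp1, 0.53 for Junb, 0.51 for Egr1 and for Fosb, 0.42 for Npas4 and 0.39 for Egr2. It was 0.18 for Jun. With the number of genes found fitted out, Nr4a1 kept 0.66, Fos 0.52 and Jun 0.06. The pairs with the highest median rho over the 4 strata were Junb with Nr4a1 and Arc with Dusp1, both at 0.52, then Fosb with Nr4a1 at 0.50, Fos with Nr4a1 at 0.49 and Egr1 with Nr4a1 at 0.48. The pair of Junb and Nr4a1 was above 0 in all 4 strata, from 0.32 to 0.71.

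The strata did not agree on every pair. Arc and Dusp1 had rho of 0.66 and 0.78 on FACS051_5 and of 0.39 and 0.09 on FACS086_4, and Egr1 and Nr4a1 the reverse, with 0.22 and 0.28 on FACS051_5 and 0.67 and 0.83 on FACS086_4. Jun and Junb, the subunits that compete for the same partners, had a median of -0.01, and Jun and Fosb of -0.05. Jun with Egr2 was the exception for Jun, at 0.41 and from 0.28 to 0.61 over the strata.

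**Figure D5:**
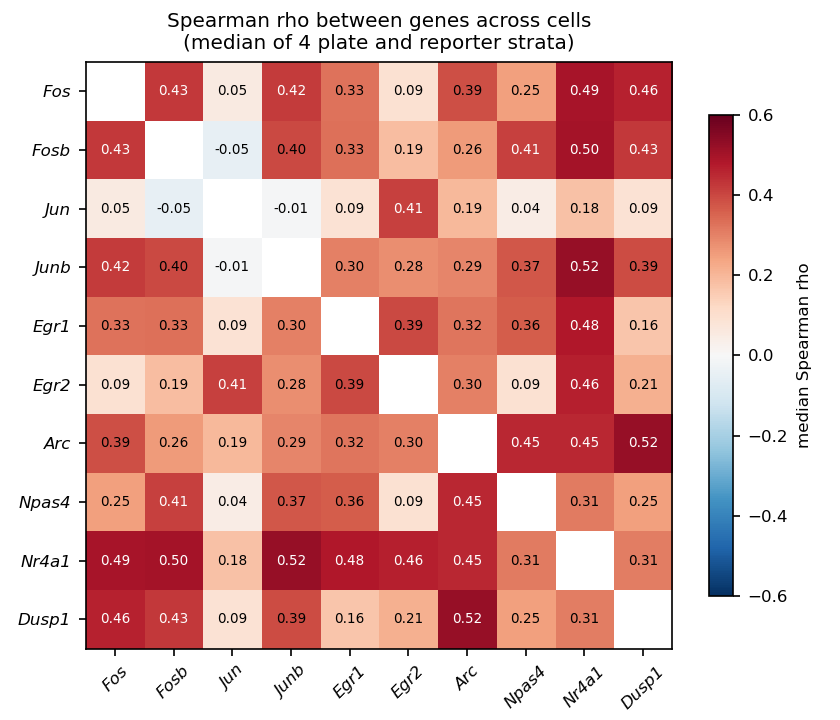
Median Spearman rho of TPM between each pair of genes (rows and columns) over 4 strata of plate and reporter group with 16 to 21 cells each, from blue (negative) to red (positive). The row of Nr4a1 holds 0.52 with Junb, the highest value, closely followed by Arc with Dusp1, and 8 of the 9 values in the row of Jun lie under 0.20.

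Presence was counted in cells as well, but not for pairs of other genes, so these shares have no background. Of the 26 MSN with Fos above 1 TPM, 25 had Nr4a1 (96.2%, exact 95% interval 80.4% to 99.9%), against 25 of the 52 without Fos (48.1%, 34.01% to 62.4%). Dusp1 was found in 18 of the 26 (69.2%, 48.2% to 85.7%) and in 11 of the 52 (21.2%, 11.1% to 34.7%), and Arc in 20 of the 26 and 19 of the 52. Jun, the usual partner of Fos, was found in 6 of the 26 (23.1%, 8.97% to 43.6%) and 9 of the 52 (17.3%, 8.23% to 30.3%), shares that counting error does not part. Of the 56 cells with Junb, 24 had Fos, and of the 22 without Junb, 2 had it. Cells with Fos had a median of 6007 genes above 1 TPM and cells without it 4805, so the number of genes found moved with these shares as well, and its part was not tested. On each large plate alone the order was the same for Nr4a1, with 10 of 10 cells with Fos and 12 of 24 without on FACS051_5, and 14 of 15 and 11 of 25 on FACS086_4.

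Npas4 and Arc were found together in 24 cells, which is 77.4% of the 31 cells with Npas4 (58.9% to 90.4%) and 61.5% of the 39 with Arc, while Arc was in 15 of the 47 cells without Npas4 (31.9%, 19.1% to 47.1%). Both genes were found in more cells of FACS086_4, and the plates are pooled in these shares. On FACS086_4 alone, Arc was in 18 of 24 cells with Npas4 (53.3% to 90.2%) and 7 of 16 without (19.8% to 70.1%), which is a smaller gap with overlapping intervals, and on FACS051_5 in 5 of 6 and 7 of 28. Cells with Npas4 above 1 TPM held a median of 5 of the other 9 genes and cells without it 3, with 6076 and 4838 genes found. Fos gave little sign of Npas4, found in 13 of the 26 cells with Fos (50%, 29.9% to 70.1%) and 18 of the 52 without it (34.6%, 22.0% to 49.1%). For each of the 10 genes, the cells that held it had a higher median number of the other 9 than the cells that did not. It was 5 against 4 for Jun and 7 against 4 for Fosb. For each of the 10, the cells that held it also had more genes found, with medians of 6279 against 5239 for Jun and 5730 against 3414 for Egr1. The part of genes found was not tested, and no such count was made for other genes.

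Other early response genes, a list of 46 that leaves out the 10, gave the following counts. In the table were 41, and 32 averaged at least 1 TPM over the MSN and had a fold between the subtypes. Past 2-fold were 8 towards D1 and 2 towards D2 MSN, where 18.4% and 12.9% of all genes were, at a median log2 fold of 0.04 against 0.08 over all genes. On both large plates 1 of the 28 with both folds was past 2-fold towards D1 MSN, against 5.14% of all genes, and 0 towards D2 MSN, against 4.25%. This was Sik1, a salt-inducible kinase that answers to cAMP, at 1.35 and 1.42, with means of 2.15 TPM over D1 and 0.226 TPM over D2 MSN, where it was above 1 TPM in 3 of 40 and 3 of 38 cells. Single cells carried it, since the fold was 0.81 without B04 of FACS051_5 and 0.01 without B04 of FACS086_4, at 42.9 TPM. Between plates, 3 of 28 were past 2-fold higher on FACS051_5 in both subtypes, against 6.14% of all genes, and 2 of 28 on FACS086_4, against 4.49%. The first were Jund (1.78 in D1 and 1.73 in D2 MSN), a constantly made AP-1 subunit, Klf6 (2.70 and 1.23) and Gadd45b (1.54 and 1.64). Jund stayed past 2-fold in both subtypes without any 1 cell, from 1.57 upwards, while Klf6 went down to 0.73 in D2 MSN and Gadd45b to 0.85 in D1 MSN. The others were Gadd45g (-1.16 and -1.55), at -0.78 in D1 MSN without A04 of FACS086_4, and Csrnp1 (-1.42 and -1.26). Csrnp1 was above 1 TPM in 1 of 21 D1 and 1 of 19 D2 MSN of FACS086_4, and its D1 fold was 0.19 without that cell, while without the D2 cell it was listed at 0 in the rest.

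Of 24 factors upstream of the early genes, such as CREB, SRF, MEF2 and the MAP kinases, all averaged at least 1 TPM. Past 2-fold were 1 towards D1 MSN and 0 towards D2 MSN, against 18.4% and 12.9% of all genes, with a median log2 fold of 0.18. Srf (2.06 and 1.96), Mef2d (1.80 and 1.20) and Crebbp (1.13 and 2.11) were past 2-fold higher on FACS051_5 in both subtypes, 3 of 24 against 6.14% of all genes. Without a single cell Mef2d was at 0.91 in D2 MSN, and Crebbp at 0.91 in D1 and 0.83 in D2 MSN, while Srf stayed at 1.44 or higher. Of 10 heat shock genes, which report on stress of the proteins, 8 had a fold between the subtypes, 0 past 2-fold towards D1 and 2 towards D2 MSN, against 18.4% and 12.9% of all genes, at a median of -0.36. The 6 with a fold between plates in both subtypes were not past 2-fold in both. Hspa1a, named after its values were seen, was above 1 TPM in 6 of 34 MSN on FACS051_5, with a mean of 53.2 TPM over the D2 MSN there, and was listed at 0 in all 40 MSN of FACS086_4, as was Hspa1b.

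The genes whose level across cells was most like the mean of the 10 included 5 from the list of other early response genes among the first 10. Over 9183 other genes above 1 TPM in at least 20% of MSN, r with that mean had a median of 0.15, and 11.99% lay above 0.3. Of the 20 other early response genes among them, 15 lay above 0.3, and their median was 0.38. The 21 upstream factors had a median of 0.19 and 6 above 0.3, and the 6 heat shock genes a median of 0.24 and 2 above 0.3. With the number of genes found fitted out, the medians were 0.25 for early response genes, -0.04 for upstream factors, 0.07 for heat shock genes and -0.01 over all genes.

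The 10 genes with the highest r were Fosl2 (0.63), a Fos family subunit of AP-1, Egr4 (0.62), another Egr zinc finger factor, Nptx2 (0.58), a pentraxin that gathers AMPA receptors, Gm42857 (0.57), Kdm7a (0.57), a histone demethylase, RP23-306P12.3 (0.57), Homer1 (0.56), a synaptic scaffold with an activity-induced short form, AC149090.1 (0.55), Sh3rf2 (0.55) and Rgs2 (0.54), an induced regulator of G protein signalling. With the number of genes found per cell fitted out, Egr4 (0.57), Fosl2 (0.56), Nptx2 (0.49) and Kdm7a (0.46) were the 4 highest of the 9183, while Rgs2 came to rank 12, Homer1 to rank 24 and RP23-306P12.3, at 0.31, to rank 78. RP23-306P12.3 itself had r = 0.74 with the number of genes found, and Egr4 had 0.30. Egr4 was above 1 TPM in 47 of 78 MSN, at a mean of 92.1 TPM, and Fosl2 in 21, at a mean of 4.30 TPM.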

How the data were processed

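The authors deposited 1 table of TPM, 1 column per cell. Per the labels and the study's methods, single-cell cDNA was made with the SMARTer Ultra Low Input kit, and the submitters' processing notes name STAR 2.5.0, featureCounts 1.5.1 and mm10/GRCm38; how the TPM were made and the strand of the libraries are not given in the sources used here. All 80 columns matched a label by title. The members and gene lists were chosen with earlier results of these data known. A gene counted as found in a cell above 1 TPM. Shares carry 95% intervals by the Clopper-Pearson method, for counting error alone. Folds were log2 ratios of mean TPM plus 1, read against genes averaging at least 1 TPM over the MSN. No fold was taken against a group at 0 in all cells. Named genes were the 10 members, genes of 3 lists (early response, upstream, heat shock) past 2-fold in 1 direction on both large plates, and the 10 most like the members. Cells named were the 3 with the most members per group, ties broken by summed TPM. Other cells, and list genes named for plate differences, were chosen after seeing values, as were the list folds without 1 cell and the shares on each plate alone. The 4 cells of FACS086_9 were centred together and entered no plate fold. As each group was taken as 1 sample, no test was made. Positions are from GENCODE M21. The folds and the likeness to the members were tested on simulated data made from the same values with changes planted. The other steps had no such test. Python 3.11.15, numpy 2.4.6, pandas 2.3.3 and scipy 1.17.1 were used.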

Additional observations from a re-analysis of the deposited data

How the results depend on the processing

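No difference past 2-fold in the main setting changed direction under the alternatives run. Folds under 2-fold in the main setting were not covered by that check. Arc, Npas4 and Junb in D2 MSN changed sign between plates with the mean of log2 values, as given above. The following counts and medians moved. With a detection limit of 0 TPM, 7 rather than 3 of the genes were found in at least 50% of D1 MSN, and with 10 TPM, 2 rather than 4 in D2 MSN. Between D1 and D2 MSN, a pseudocount of 10 TPM left 0 genes past 2-fold higher in D2 MSN, and the difference of mean log2(TPM + 1) gave 1 higher in D1 MSN (Egr1) and 0 in D2 MSN. FACS051_5 alone gave 1 higher in D1 MSN and 2 in D2 MSN, FACS086_4 alone gave 1 higher in D1 MSN, and keeping the cells with Chat gave 1 (Egr2). Between plates, a pseudocount of 10 TPM gave 1 gene in each direction in D1 MSN. The mean of log2 values gave 4 genes higher on FACS086_4 in D1 MSN, and 2 in each direction in D2 MSN. Keeping the cells with Chat gave 1 gene (Junb) higher on FACS086_4 in D2 MSN. With each cell left out in turn, chosen after seeing the data, 0 to 1 genes were past 2-fold higher in D1 MSN; between plates, 1 to 2 (FACS051_5) and 0 to 2 (FACS086_4) in D1 MSN, and 1 to 3 and 0 to 1 in D2 MSN. As Pearson r, the median over pairs in D2 MSN was 0.25 on FACS051_5 and 0.32 on FACS086_4. With the number of genes found fitted out it was 0.20 in D1 MSN of FACS051_5, and 5 of the 10 genes most like the members stayed among the top 10. The cause of these moves was not tested. A pseudocount of 10 TPM lowered the background to 3.998% and 2.68% of all genes higher in D1 and D2 MSN, and the mean of log2 values to 4.71% and 1.67%. No paired analysis was possible because no test was made and the labels give no replicate numbers, and D1 and D2 MSN were compared within plates instead. TPM leave read depth unknown, and the few cells on FACS086_9 allowed no comparison of their own.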

Other observations

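The 2 Drd2-EGFP cells with Chat above 100 TPM, both on FACS051_5, entered no comparison. They had the largest numbers of genes above 1 TPM of all 80 cells, 10912 in A08 and 10251 in B02. Cell A08 held 4 of the 10 immediate early genes, the median of the D2 MSN, with Fos at 37.5 TPM, Fosb at 1.56 TPM, Junb at 20.2 TPM and Egr1 at 4.02 TPM. Cell B02 held 1, Dusp1, at 30.2 TPM. Nr4a1, Egr2, Jun and Arc were listed at 0 in both cells, and the 10 genes summed to 63.7 TPM in A08 and 31.1 TPM in B02. Among the D2 MSN of the same plate this sum ran from 69.6 over a median of 510 to 1848 TPM. With 2 cells, no range can be given for cells of this kind.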
